A study of Rattus norvegicus with 16 samples.

Results

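The genes examined here encode ligands and receptors of the tumour necrosis factor (TNF) superfamily and the proteins that carry their signal inside the cell. They were taken by gene symbol from the array's annotation: symbols beginning with Tnfrsf, Tnfsf, Traf or Tnfaip and a number, together with Tnf, Fas, Faslg, Tradd, Fadd and Ripk1. One Tnfaip gene is left out by that rule. This gave 43 of the 14217 genes with a probe set of their own (61 probe sets in all, with 13 genes carrying more than 1), and each gene was represented by the probe set with the highest mean over the 16 arrays. RNA came from the epididymal initial segment, the stretch of duct closest to the testis, of adult male Sprague-Dawley rats. The efferent ducts, which carry testicular fluid into the epididymis, were ligated on 1 side (efferent duct ligation, EDL), and the other side of the same animal had a sham operation. The 4 groups were sham, 6 h, 12 h and 18 h after ligation, with 4 arrays each. The hour at which the sham tissue was taken is not given (the labels set its time to 0), and the labels call the replicates biological without saying that a shared number stands for a shared animal, so p-values measure the spread between these arrays.

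The ligands of this family are mostly trimers on the cell surface or in solution, and each binds 1 or a few receptors. Some receptors, such as the TNF receptor Tnfrsf1a, Fas and Tnfrsf21, have an intracellular death domain that binds adaptors such as Tradd or Fadd and can lead to caspase activation, whereas others bind TNF receptor-associated factors (Trafs) directly and act mainly through NF-kappaB and stress kinases. The title of the study names NF-kappaB signalling and apoptosis, and the question put to these genes was which of them had changed at each time after the testicular supply was blocked.

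Levels are log2 values of the array signal, which run from a floor of 2.22 upwards. Anything under 5 was treated as not distinguishable from background, and levels of different genes were not set against each other. Of the 43 genes, 21 reached 5 on at least 4 arrays and were tested, 18 of them on all 16 arrays. The other 22 were not tested, and 21 of these lay under 5 on all 16 arrays. By role, 3 of 8 ligands, 5 of 15 receptors, 6 of 7 Trafs, 2 of 3 Traf3-interacting genes, all 3 of the adaptors and the kinase, 2 of 4 TNF-induced genes and 0 of 3 Tnfaip8-like genes were tested. Of the 31042 probe sets other than controls, 13410 passed the same minimum, counted by probe set rather than by gene. Most Trafs, Traf3-interacting genes, adaptors and the kinase were thus above background, and most ligands and receptors were not.

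**Figure D1:**
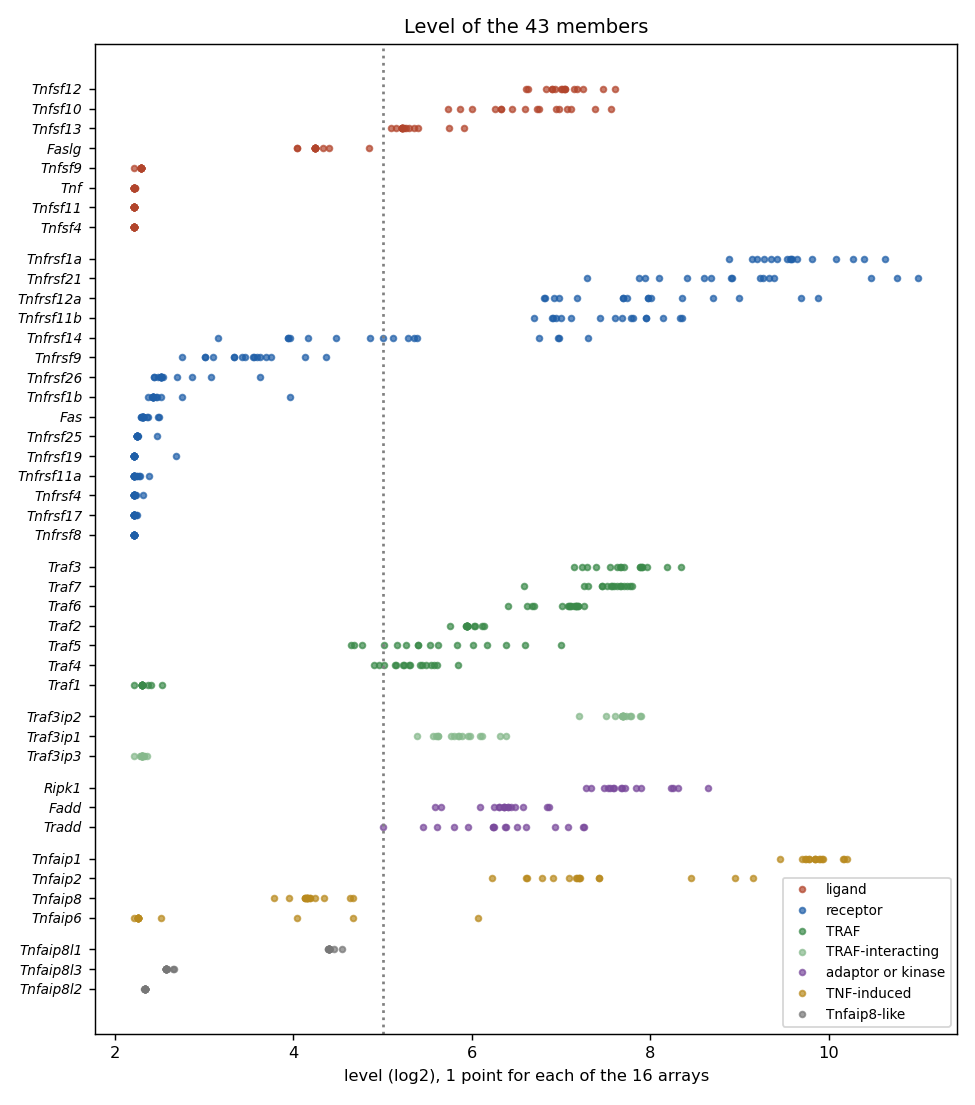
Level (log2 array signal) of each of the 43 genes on the 16 arrays, 1 point per array, grouped by role; the dotted line marks the minimum of 5. Tested genes lie mostly to the right of the line, and 21 genes, Tnf and Fas among them, lie to its left on all 16 arrays.

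Tnf itself, the founding ligand, was at the floor on all 16 arrays, its highest level being 2.22. Fas, the death receptor bound by Faslg, did not exceed 2.49, and Faslg did not exceed 4.85. The second TNF receptor Tnfrsf1b did not exceed 3.97, a value it reached on 12 h replicate 2. None of these 4 genes therefore gave a level above background in any group, and no change was measured for them. Among the other untested ligands, the highest level was 2.22 for Tnfsf4 and for Tnfsf11 (the ligand known as RANKL) and 2.30 for Tnfsf9. Among the other untested receptors it was 2.38 for Tnfrsf11a (RANK), 2.25 for Tnfrsf17, 2.69 for Tnfrsf19, 2.47 for Tnfrsf25, 3.63 for Tnfrsf26, 2.31 for Tnfrsf4, 2.22 for Tnfrsf8 and 4.36 for Tnfrsf9. Tnfrsf17 is a receptor of B-lineage cells and Tnfrsf4, Tnfrsf8 and Tnfrsf9 are best known from activated lymphocytes. Of the remaining untested genes, Traf1 did not exceed 2.53, Traf3ip3 2.36, Tnfaip8 4.67, Tnfaip8l1 4.55, Tnfaip8l2 2.34 and Tnfaip8l3 2.66. The last of the 22, Tnfaip6, a secreted hyaluronan-binding protein, passed 5 on a single array. It read 4.67 and 6.07 on 12 h replicates 1 and 2 and 4.04 on 18 h replicate 2, and it did not exceed 2.52 on the other 13 arrays.

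At 6 h, 1 of the 21 tested genes was called lower than sham and 0 were called higher, where a call is a limma adjusted p under 0.05. Over the 13410 tested probe sets, 0.112% were called higher and 0.172% lower. At 12 h, 2 genes were called higher and 2 lower, against 3.77% and 4.09% of all tested probe sets. At 18 h, 3 were called higher and 2 lower, against 5.20% and 4.96%. The median difference of the 21 genes from sham was -0.05, 0.10 and 0.28 at 6, 12 and 18 h, beside 0.02, 0.02 and 0.01 over all tested probe sets. The 12 h median was 0.02 with the array set as a block, and replicates 3 and 4 alone gave 0.09 at 18 h, where replicates 1 and 2 alone gave 0.28. The 3 comparisons share the same 4 sham arrays. At an unadjusted p under 0.05, 7, 6 and 11 of the 21 genes differed from sham at 6, 12 and 18 h, beside 5.70%, 19.5% and 22.2% of all tested probe sets.

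**Figure D2:**
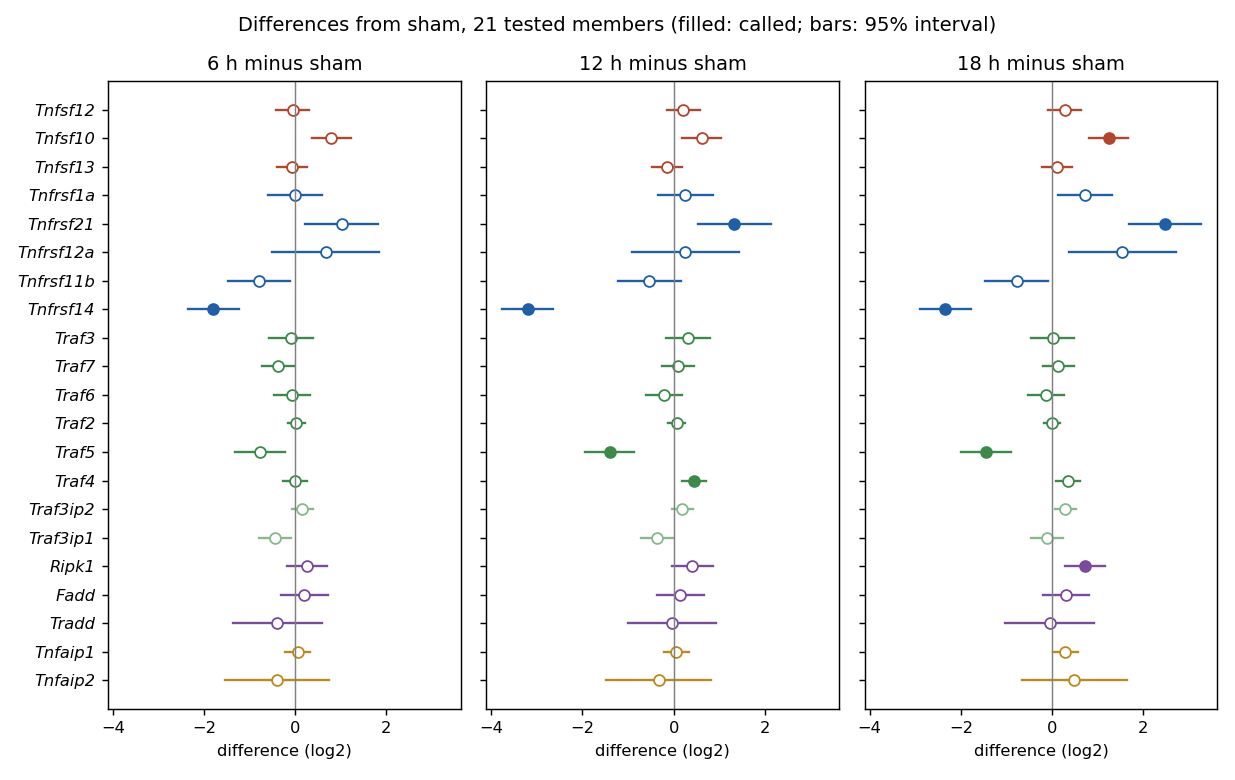
Difference of each ligated group from sham (log2) for the 21 tested genes, with the 95% interval from the limma fit (n = 4 arrays per group); filled points have an adjusted p under 0.05. Tnfrsf14 lies below 0 at every time, and Tnfrsf21 moves to the right from 1.02 at 6 h to 2.48 at 18 h.

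Among the receptors, Tnfrsf14 fell and Tnfrsf21 rose. Tnfrsf14, the herpesvirus entry mediator, is a receptor without a death domain that binds the ligand LIGHT and signals through Trafs. Its 4 sham arrays read 6.98, 7.30, 6.75 and 6.96. The arrays read 5.12, 5.29, 5.39 and 5.0 at 6 h, 3.94, 4.17, 3.94 and 3.16 at 12 h, and 5.35, 4.86, 3.97 and 4.47 at 18 h. Every ligated array lay below every sham array at all 3 times, and the 12 h mean was the lowest, with all 4 of its arrays under 5. The difference from sham was -1.80 ± 0.26 (SE, n = 4 per group) at 6 h, with a limma adjusted p of 0.0118. It was the only one of the 21 genes called at that time. At 12 h the difference was -3.20 ± 0.26 (adjusted p 5.14e-06) and at 18 h it was -2.34 ± 0.26 (adjusted p 5.67e-05). With levels under 5 set to 5, these differences were -1.80, -2.0 and -1.91, so that Tnfrsf14 was at least 3.99-fold lower at 12 h. The 6 h call did not hold without sham replicate 4 (adjusted p 0.0512), with no minimum level (0.0690), or within replicates 1 and 2 (-1.93, 0.103) or replicates 3 and 4 (-1.67, 0.319) alone.

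Tnfrsf21, also called death receptor 6, has a death domain and is known from studies of neurons and T cells. Its sham arrays read 8.10, 7.94, 7.29 and 7.87. They were followed by 8.41, 8.92, 8.68 and 9.26 at 6 h, by 8.60, 9.23, 9.38 and 9.32 at 12 h and by 10.76, 11.00, 10.48 and 8.90 at 18 h. All ligated arrays lay above all sham arrays, while 18 h replicate 4 lay within the range of the 6 h and 12 h arrays. The difference from sham was 1.02 ± 0.37 at 6 h, which was not called (adjusted p 0.607, 95% interval 0.22 to 1.81). It was 1.34 ± 0.37 at 12 h (adjusted p 0.0409) and 2.48 ± 0.37 at 18 h (adjusted p 0.000619), a 5.59-fold higher signal. A second probe set of the gene gave 0.97, 1.09 and 2.19 at the 3 times, called at 18 h (adjusted p 0.00213) and not at 12 h (0.117). The 12 h call was not firm: it was lost when any 1 of sham replicates 2, 3 and 4, 6 h replicates 2 and 3, 12 h replicates 2, 3 and 4, or 18 h replicate 3 was left out, with adjusted p over all single omissions between 0.00270 and 0.122.

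The other 3 tested receptors were not called in any comparison with sham. Tnfrsf1a, the main receptor of Tnf and present on most cells, read 8.87, 9.53, 9.64 and 9.56 in sham and 10.27, 10.63, 10.39 and 9.20 at 18 h. Replicates 1 to 3 of the 18 h group were thus above all sham arrays and replicate 4 was within them. Its differences were -0.01 at 6 h (interval -0.60 to 0.58), 0.26 at 12 h (-0.33 to 0.85) and 0.72 ± 0.28 at 18 h (0.13 to 1.31, adjusted p 0.129). The 6 h arrays read 9.27, 9.57, 9.59 and 9.14 and the 12 h arrays 9.42, 9.81, 10.08 and 9.35. Without 18 h replicate 4 the difference at that time was 1.03, with an adjusted p of 0.00744. The other 15 single omissions gave no call, with limma adjusted p up to 0.298. The 18 h difference was 1.25 in replicates 1 and 2 alone and 0.19 in replicates 3 and 4 alone.

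Tnfrsf12a (Fn14), the receptor of Tnfsf12, is known to be induced in injured and regenerating tissue. Its group means ± SD were 7.35 ± 0.43 in sham, 8.02 ± 0.25 at 6 h, 7.60 ± 1.39 at 12 h and 8.88 ± 0.79 at 18 h. The wide spread at 12 h came from replicate 3 at 9.69, with the other 3 arrays between 6.81 and 6.97. At 18 h the arrays read 8.70, 8.99, 9.88 and 7.97, all above the highest sham array at 7.70, and the difference was 1.54 ± 0.55 (interval 0.37 to 2.71, adjusted p 0.0972). Leaving out 12 h replicate 3, which narrows the shared estimate of spread, gave the same difference with an adjusted p of 0.00735. The other 15 single omissions gave no call for Tnfrsf12a at 18 h, with limma adjusted p up to 0.263. Tnfrsf11b, the secreted decoy receptor osteoprotegerin, had means of 8.06 ± 0.24 in sham, 7.27 ± 0.54 at 6 h, 7.53 ± 0.72 at 12 h and 7.29 ± 0.28 at 18 h. Its difference was -0.79 at 6 h (-1.48 to -0.10, adjusted p 0.718), -0.53 at 12 h (-1.22 to 0.16) and -0.77 at 18 h (-1.46 to -0.08, adjusted p 0.163). A limma fit of only the 18 h and sham groups gave the same 18 h difference with an adjusted p of 0.0401. With the array set as a block it was -0.38 (adjusted p 0.500).

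Of the ligands, Tnfsf10 rose at 18 h and the other 2 were not called. Tnfsf10, or TRAIL, is a ligand of death-domain receptors and a known interferon-responsive gene. In sham it read 5.74, 6.01, 5.87 and 6.26. After ligation it read 6.73, 7.11, 6.75 and 6.45 at 6 h, 6.33, 6.60, 6.33 and 7.06 at 12 h, and 7.56, 6.97, 6.94 and 7.38 at 18 h. No ligated array was as low as any sham array at any of the 3 times. The difference was 0.79 ± 0.20 at 6 h (interval 0.37 to 1.22, adjusted p 0.205) and 0.61 ± 0.20 at 12 h (0.19 to 1.04, adjusted p 0.0790). At 18 h it was 1.25 ± 0.20 (adjusted p 0.000966), a 2.37-fold higher signal. Tnfsf12 (TWEAK), the ligand of Tnfrsf12a, had means of 6.92, 6.87, 7.14 and 7.21 in sham and at 6, 12 and 18 h. Its 18 h difference of 0.28 had an interval of -0.08 to 0.64. Tnfsf13 (APRIL), a survival factor of plasma cells, had means of 5.34, 5.26, 5.19 and 5.45 in the same order, with an 18 h interval of -0.21 to 0.46.

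**Figure D3:**
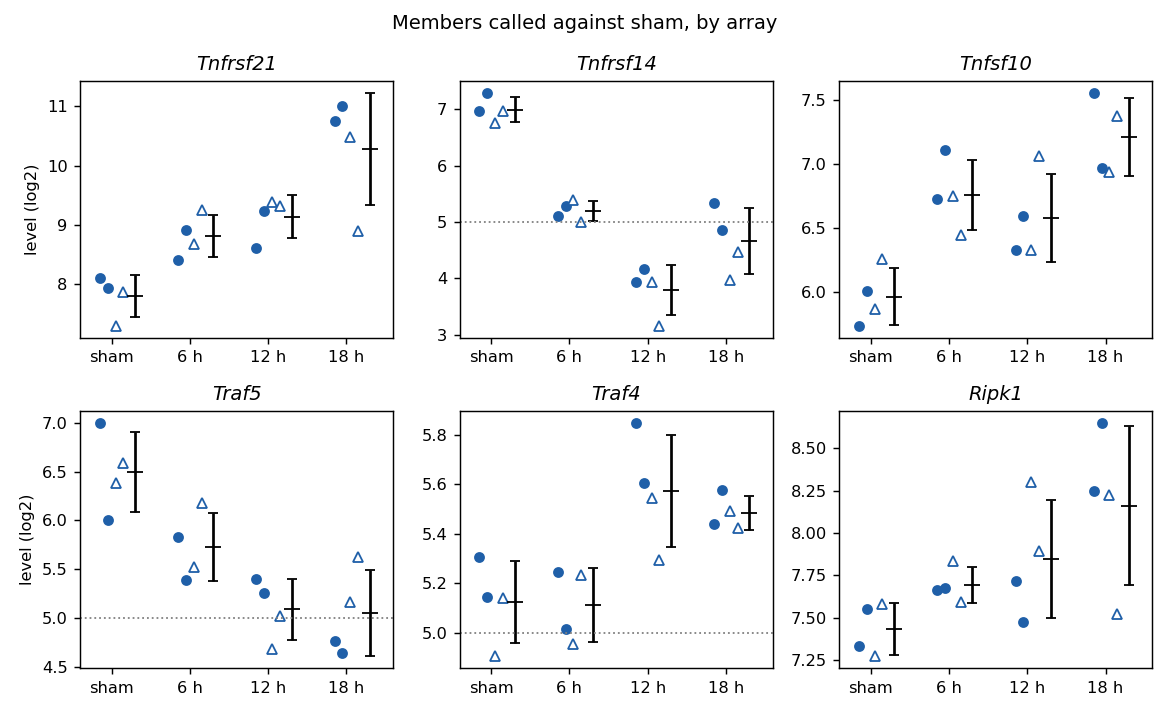
Level (log2) on each array of the 6 genes called in a comparison with sham: circles are replicates 1 and 2, triangles replicates 3 and 4, and bars the mean ± SD of 4 arrays; the dotted line marks 5. Tnfrsf21 and Tnfsf10 are highest at 18 h, Tnfrsf14 and Traf5 lie below sham, and 18 h replicate 4 is close to sham for Ripk1.

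Among the Trafs, Traf5 fell, Traf4 rose at 12 h and the other 4 tested genes were not called. Traf5 is a close relative of Traf2 and acts downstream of several receptors, Tnfrsf14 among them. It read 7.0, 6.01, 6.38 and 6.59 in sham, then 5.83, 5.39, 5.53 and 6.17 at 6 h. The 12 h arrays read 5.40, 5.26, 4.68 and 5.02 and the 18 h arrays 4.77, 4.65, 5.16 and 5.62. The 12 h and 18 h groups did not overlap with sham, whereas 6 h replicate 4 lay above sham replicate 2. The difference was -0.76 ± 0.26 at 6 h (interval -1.31 to -0.22, adjusted p 0.524), -1.41 ± 0.26 at 12 h (adjusted p 0.00347) and -1.45 ± 0.26 at 18 h (adjusted p 0.00204). Both calls held whichever single array was left out, but the 12 h call was lost in replicates 1 and 2 alone (-1.18, adjusted p 0.103) and the 18 h call in replicates 3 and 4 alone (-1.10, adjusted p 0.0633). With levels under 5 set to 5, Traf5 was 2.51-fold lower at 12 h and 2.46-fold lower at 18 h.

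Traf4, which differs from most Trafs in that it is known from epithelial cells and cell junctions rather than from TNF receptor signalling, read 5.31, 5.15, 4.90 and 5.14 in sham and 5.24, 5.01, 4.95 and 5.23 at 6 h. At 12 h it read 5.85, 5.61, 5.54 and 5.30, and at 18 h 5.44, 5.58, 5.49 and 5.42. All its levels were close to the minimum of 5. The difference was -0.01 at 6 h (interval -0.28 to 0.25), 0.45 ± 0.12 at 12 h (adjusted p 0.0371) and 0.36 ± 0.12 at 18 h (0.10 to 0.62, adjusted p 0.0834), although the 12 h arrays overlapped with sham and the 18 h arrays did not. The 12 h call was lost without any 1 of sham replicates 2, 3 and 4 or 12 h replicates 1, 2 and 3, with adjusted p over all single omissions between 0.0164 and 0.119.

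Traf2, the adaptor that links Tradd to the cIAP ubiquitin ligases, had group means of 5.95 ± 0.01, 5.97 ± 0.16, 6.01 ± 0.08 and 5.95 ± 0.01 in sham and at 6, 12 and 18 h. Its arrays read 5.95, 5.95, 5.95 and 5.93 in sham, 6.03, 5.75, 5.95 and 6.14 at 6 h, 6.04, 5.95, 6.11 and 5.95 at 12 h, and 5.95, 5.95, 5.95 and 5.93 at 18 h. On 9 of the 16 arrays its value was the same to 4 decimals, so its small spread, and the interval of -0.18 to 0.18 at 18 h, rest in part on repeated values. Traf3ip2 (Act1), the adaptor of the interleukin-17 receptor, shared a value on 5 arrays in the same way. Such repeats on 5 or more arrays occurred in 6.83% of all tested probe sets. Traf3ip2 means were 7.52, 7.67, 7.71 and 7.81, and its 18 h difference was 0.29 (0.07 to 0.52, adjusted p 0.0966).

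The remaining Trafs and Traf3ip1 were not called against sham. Traf3, which restrains the alternative NF-kappaB pathway, had means of 7.65, 7.56, 7.96 and 7.66 in sham and at 6, 12 and 18 h. Traf6, which serves interleukin-1 and Toll-like receptors as well as this family, had means of 7.11, 7.03, 6.89 and 6.98, and none of its 3 tested probe sets was called against sham. Traf7, which has WD40 repeats in place of the usual Traf domain, had means of 7.55, 7.17, 7.65 and 7.69. Traf3ip1, a protein of the ciliary transport machinery, had means of 6.09, 5.65, 5.73 and 5.97. The 18 h intervals were -0.46 to 0.49 for Traf3, -0.53 to 0.27 for Traf6, -0.21 to 0.48 for Traf7 and -0.46 to 0.23 for Traf3ip1.

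The kinase Ripk1 rose at 18 h and the adaptors Tradd and Fadd were not called. Ripk1 is recruited to Tnfrsf1a and stands between NF-kappaB activation and cell death. It read 7.33, 7.55, 7.27 and 7.58 in sham, 7.67, 7.68, 7.84 and 7.59 at 6 h, 7.72, 7.47, 8.30 and 7.89 at 12 h, and 8.25, 8.65, 8.23 and 7.52 at 18 h. Replicates 1 to 3 at 18 h were above all sham arrays, and replicate 4 was within them. The difference was 0.26 at 6 h (interval -0.19 to 0.70), 0.41 at 12 h (-0.03 to 0.86) and 0.72 ± 0.21 at 18 h (adjusted p 0.0402), a 1.65-fold higher signal. Its second probe set gave 1.04 at 18 h, not called (adjusted p 0.257). The 18 h call was lost without any 1 of the 4 sham arrays, the 4 arrays at 6 h or replicates 1, 2 and 3 at 18 h, and with 18 h replicate 4 left out the difference was 0.94 (adjusted p 0.00340).

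Tradd, the death-domain adaptor of Tnfrsf1a, read 5.80, 6.23, 7.07 and 6.61 in sham, 6.25, 5.01, 6.50 and 6.37 at 6 h, 5.61, 5.46, 7.26 and 7.25 at 12 h, and 6.23, 5.96, 6.94 and 6.38 at 18 h. In every group replicates 3 and 4 were higher than replicates 1 and 2, and the groups overlapped. Its differences from sham were -0.39, -0.04 and -0.05 at 6, 12 and 18 h, with an 18 h interval of -1.02 to 0.92. Fadd, the adaptor that joins Fas and its relatives to caspase 8, read 6.09, 5.58, 6.41 and 6.58 in sham, 6.30, 6.36, 6.36 and 6.44 at 6 h, 6.84, 6.41, 6.36 and 5.66 at 12 h, and 6.87, 6.24, 6.30 and 6.48 at 18 h. The groups overlapped here too, and the 18 h difference of 0.31 had an interval of -0.21 to 0.82. Both intervals still hold changes of the size measured for Ripk1.

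**Figure D4:**
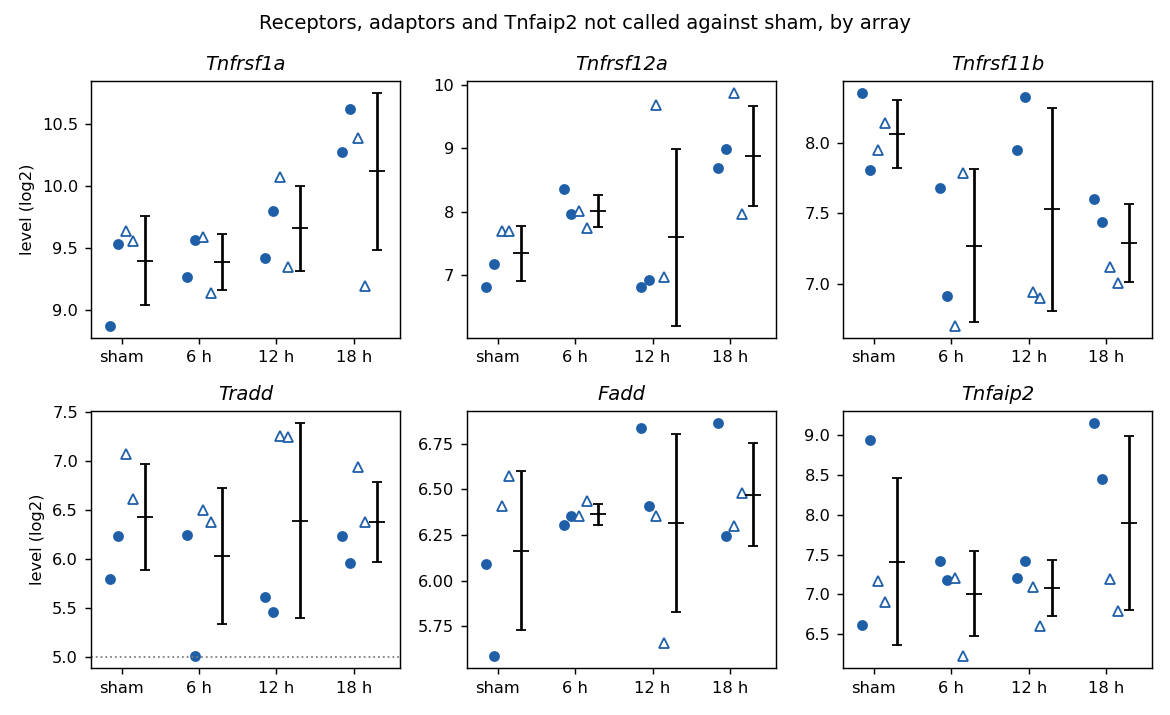
Level (log2) on each array of 6 genes that were not called against sham, drawn as circles for replicates 1 and 2 and triangles for replicates 3 and 4, with mean ± SD of 4 arrays. Tnfrsf12a stands out on 12 h replicate 3 at 9.69, and Tradd is higher in replicates 3 and 4 than in replicates 1 and 2 in every group.

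The 2 tested TNF-induced genes were not called. Tnfaip1, an adaptor of cullin ubiquitin ligases, had means of 9.77 ± 0.06, 9.82 ± 0.08, 9.83 ± 0.30 and 10.05 ± 0.15 in sham and at 6, 12 and 18 h. All its 18 h arrays lay above all sham arrays, with a difference of 0.29 (interval 0.01 to 0.56, adjusted p 0.200). Tnfaip2, a protein of membrane protrusions, had means of 7.41 ± 1.05, 7.01 ± 0.53, 7.08 ± 0.35 and 7.90 ± 1.10, so that its SD in sham and at 18 h was larger than any difference between the groups. Its second probe set was not called either, with a difference of 1.27 at 18 h (adjusted p 0.282).

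Counted by overlap, 4 of the 21 genes had all 6 h arrays above all sham arrays (Tnfrsf21, Tnfsf10, Tnfrsf12a and Ripk1) and 2 had them below (Tnfrsf14 and Tnfrsf11b), while 4.41% of all tested probe sets did not overlap in either direction. At 12 h the counts were 2 above and 2 below, beside 11.8% of all tested probe sets. At 18 h they were 6 above (Tnfrsf21, Tnfsf10, Tnfrsf12a, Tnfaip1, Tnfsf12 and Traf4) and 3 below (Tnfrsf14, Traf5 and Tnfrsf11b), beside 14.2%. Of these 9 genes at 18 h, 4 were called.

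Between 6 h and 12 h, Tnfrsf14 fell by 1.40 ± 0.26 (adjusted p 0.00881) and Traf4 rose by 0.46 ± 0.12 (adjusted p 0.0484), 1 of 21 genes in each direction, beside 1.82% of tested probe sets called higher and 2.46% lower. The Tnfrsf14 arrays at 12 h were all under 5, and with levels under 5 set to 5 that difference was -0.20. The Traf4 call was lost on leaving out any 1 of 13 arrays, all but sham replicates 1 and 3 and 12 h replicate 4, with adjusted p over all single omissions between 0.0235 and 0.149. Between 12 h and 18 h, 0 of 21 genes and 0% of all tested probe sets were called in either direction by limma. At an unadjusted p under 0.05, 4 genes were higher at 18 h than at 12 h, beside 3.30% of all tested probe sets: Tnfrsf14 by 0.86, Tnfsf10 by 0.63, Tnfrsf21 by 1.15 and Tnfrsf12a by 1.29. With levels under 5 set to 5, the Tnfrsf14 difference was 0.09. Leaving out 18 h replicate 4 gave a call for Tnfrsf21 (1.61, adjusted p 0.0282), and leaving out 12 h replicate 3 gave one for Tnfrsf12a (1.98, adjusted p 0.0419). For each of these genes the other 15 single omissions gave no call.

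The arrays divided along the replicate numbers. With the group in the model, replicates 3 and 4 differed from replicates 1 and 2 in 18.3% of tested probe sets called higher and 18.7% called lower. Of the 21 genes, 2 were higher in replicates 3 and 4, namely Tradd by 0.98 ± 0.19 (adjusted p 0.00166) and Traf3 by 0.39 ± 0.12 (adjusted p 0.0193). Another 3 were lower, namely Tnfaip2 by -0.90 ± 0.30 (adjusted p 0.0317), Tnfrsf14 by -0.42 ± 0.15 (adjusted p 0.0439) and Tnfsf12 by -0.31 ± 0.09 (adjusted p 0.0143). Every group held both kinds of array. Replicates 3 and 4 of sham and 6 h carried a bacterial dap control transcript at 7.11 to 7.93, and those of 12 h and 18 h had it at the floor. Within replicates 3 and 4 this difference and the comparison of 12 h or 18 h with sham therefore cannot be told apart. The same holds there for the comparison of 12 h with 6 h. With the 3 sets of arrays as a block, the calls of Tnfrsf21 at 12 h (adjusted p 0.0664), Ripk1 at 18 h (0.101) and Traf4 between 6 h and 12 h (0.0517) were lost and the other calls held.

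Taken in replicates 1 and 2 first and in replicates 3 and 4 second, the 18 h differences from sham were 2.86 and 2.11 for Tnfrsf21, 1.39 and 1.10 for Tnfsf10, 1.01 and 0.44 for Ripk1, -2.04 and -2.64 for Tnfrsf14, and -1.80 and -1.10 for Traf5. At 12 h they were -3.08 and -3.31 for Tnfrsf14, -1.18 and -1.64 for Traf5, 0.90 and 1.77 for Tnfrsf21, and 0.50 and 0.40 for Traf4. Each of these differences had the same sign on both sides. Except for Ripk1 and Traf4, that followed from the lack of overlap with sham. All of them had been called on these same arrays, so the shared sign is not a separate test. In replicates 3 and 4 alone the 18 h calls of Tnfrsf21 (adjusted p 0.0624) and Tnfsf10 (adjusted p 0.0823) were lost as well. The 18 h replicate 4 array was the one nearest the sham mean for 11 of the 21 genes, against 5, 2 and 3 for replicates 1, 2 and 3 of that group. For replicates 1 to 4 the counts were 7, 2, 4 and 8 at 6 h and 8, 5, 4 and 4 at 12 h. The same was not counted over all tested probe sets.

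The tissue is bulk, so fewer cells of a type and less RNA per cell cannot be told apart. All 10 epithelial markers lay above 5 on every array, and their mean level was 10.41 to 10.54 in sham and 10.69 to 11.10 at 18 h, with 2 of 10 called higher at 12 h and 2 of 10 at 18 h (1 of 10 and 2 of 10 with the array set as a block). All 5 initial segment markers found (of 10) were above 5 on every array, and 1 of 5 was called lower at 12 h and 1 of 5 at 18 h (3 of 5 and 2 of 5 with the array set as a block). For macrophages the summed level of 12 markers was 58.9 to 65.4 in sham, 57.0 to 63.7 at 6 h, 50.3 to 77.2 at 12 h and 61.4 to 74.5 at 18 h, with 1 of 8 tested markers called higher at 18 h, and Adgre1, Cd163 and Itgam under 5 throughout. With the array set as a block, 1 of 8 was called higher at 12 h and 1 of 8 at 18 h. Of 10 lymphocyte markers, 7 were under 5 on all arrays, namely Cd3d, Cd3e, Cd3g, Cd4, Cd8a, Cd79b and Ms4a1, and 0 of 3 tested markers were called. Transcripts of sperm fell: the summed level of 6 markers was 27.5 to 39.5 in sham, 16.5 to 29.3 at 6 h, 16.5 to 22.3 at 12 h and 16.5 to 18.2 at 18 h, with Prm2, Tnp1 and Tnp2 under 5 throughout. Of the 3 tested markers, 1, 3 and 3 were called lower at the 3 times (2 at 12 h with the array set as a block). The highest sums were on sham arrays, through which these markers could pass the minimum level, so the counts are not independent of the filter. The part of macrophages in the rises of Tnfrsf21, Tnfsf10 and Ripk1, and that of sperm in the falls of Tnfrsf14 and Traf5, was not tested. Fibroblast markers were lower in replicates 3 and 4 (7 of 9 called, median -1.51), as were macrophage markers (6 of 8, median -0.90), and their part in the lower Tnfaip2, Tnfrsf14 and Tnfsf12 of those arrays was not tested. The 12 h replicates 1 and 2 on which Tnfaip6 was highest also had the highest S100a8 (4.92 and 8.75) and S100a9 (8.47 and 10.36), genes abundant in neutrophils, while Cxcr2 was at the floor there and no relation was tested.

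Promoter sequence is shown for the genes called at 18 h that the RefSeq table of the rat assembly GRCr8 holds, and for Tnfrsf12a, which carries a motif match. Each window is the 250 bases before the annotated start of the gene, 5′ to 3′ on the gene's strand, in lower case, with any match to the 3 motifs searched in capitals. The windows are chr9:25451324-25451573 on the minus strand, chr2:112136689-112136938 (Tnfsf10, plus), chr17:31077168-31077417 (Ripk1, minus), chr13:106149708-106149957 (Traf5, minus) and chr10:13213649-13213898 (Tnfrsf12a, minus).
Tnfrsf21: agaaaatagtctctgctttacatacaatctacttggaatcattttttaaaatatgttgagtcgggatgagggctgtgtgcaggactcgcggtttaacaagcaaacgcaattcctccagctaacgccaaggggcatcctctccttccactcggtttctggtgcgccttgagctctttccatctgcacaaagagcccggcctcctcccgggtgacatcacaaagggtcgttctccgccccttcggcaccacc
Tnfsf10: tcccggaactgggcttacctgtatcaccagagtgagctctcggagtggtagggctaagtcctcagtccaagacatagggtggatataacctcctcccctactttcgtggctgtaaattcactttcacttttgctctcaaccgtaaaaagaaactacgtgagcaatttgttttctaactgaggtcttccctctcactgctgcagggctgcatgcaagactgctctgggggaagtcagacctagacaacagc
Ripk1: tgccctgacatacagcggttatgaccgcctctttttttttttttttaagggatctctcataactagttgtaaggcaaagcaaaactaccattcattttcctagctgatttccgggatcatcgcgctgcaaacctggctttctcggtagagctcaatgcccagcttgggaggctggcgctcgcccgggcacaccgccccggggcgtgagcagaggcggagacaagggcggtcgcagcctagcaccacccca
Traf5: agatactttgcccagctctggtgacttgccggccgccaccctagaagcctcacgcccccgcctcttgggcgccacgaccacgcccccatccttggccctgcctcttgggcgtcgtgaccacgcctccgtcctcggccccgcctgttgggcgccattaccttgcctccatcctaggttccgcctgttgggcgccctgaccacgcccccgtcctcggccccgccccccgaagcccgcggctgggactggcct
Tnfrsf12a: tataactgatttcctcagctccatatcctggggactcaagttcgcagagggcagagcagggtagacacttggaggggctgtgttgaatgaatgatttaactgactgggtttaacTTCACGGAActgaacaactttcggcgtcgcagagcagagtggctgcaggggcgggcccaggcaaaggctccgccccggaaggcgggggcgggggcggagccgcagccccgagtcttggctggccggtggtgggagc
The motifs, searched on both strands, were the NF-kappaB consensus, the STAT element TTCNNNGAA and the AP-1 element TGANTCA. Of the 33469 promoter windows in the table, 6.33% held an NF-kappaB match, 7.67% a STAT match and 6.34% an AP-1 match. Of the 43 genes, 35 had a window: 6 held an NF-kappaB match (17.1%), 2 a STAT match (5.71%) and 6 an AP-1 match (17.1%). The windows of Tnfrsf21, Tnfsf10, Ripk1, Traf5 and Traf4 held none of these letters, which says nothing of binding elsewhere. The capitals in the Tnfrsf12a window mark a STAT match, and Tnfrsf12a was not called. NF-kappaB matches lay in the windows of Traf3, Traf7 and Traf3ip2, none of them called against sham, and of the untested Fas, Tnfrsf8 and Tnfaip8l1.

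Other genes of the pathway were counted from lists put together by knowledge of the pathway. Superfamily genes under other symbols numbered 13, of which 8 were on the array and 2 were tested, the lymphotoxin receptor Ltbr and the neurotrophin receptor Ngfr. Neither was called against sham at any time by limma (0 of 2, with 0 at an unadjusted p under 0.05), and the median difference of the pair at 18 h was 0.51. It was 0.80 in replicates 1 and 2 alone and 0.22 in replicates 3 and 4 alone. Ngfr was under 5 on 3 sham arrays and on 2 arrays at 18 h. With levels under 5 set to 5, the 18 h difference of Ngfr was 0.52. The other 6, including Cd40 and its ligand Cd40lg, did not exceed 3.69, the highest level of lymphotoxin beta (Ltb).

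Receptor-proximal signalling genes numbered 42, of which 32 were on the array and 27 were tested. At 6 h, 0 of 27 were called, at 12 h 1 higher and 1 lower, and at 18 h 5 higher and 2 lower, with the same shares of all tested probe sets as given above for each time. Their median difference was 0.05, 0.06 and 0.17 at 6, 12 and 18 h. Relb, the subunit of the alternative NF-kappaB pathway, was under 5 on all sham, 6 h and 12 h arrays and read 6.00, 5.72, 6.32 and 5.10 at 18 h. Its 18 h difference was 1.23 ± 0.20 (adjusted p 0.000988), at least 1.72-fold with levels under 5 set to 5. Relb passed the minimum level only through its 18 h arrays, so this call is not independent of the filter. Birc3 (cIAP2), a ubiquitin ligase bound by Traf2, was under 5 on all sham and 6 h arrays and read 5.82, 6.20, 6.33 and 5.19 at 18 h, a difference of 1.57 ± 0.26 (adjusted p 0.00128) and at least 1.85-fold. It passed the minimum level only through 12 h and 18 h arrays, and the same limit holds. Relb and Birc3 are both among the 5 genes called higher at 18 h. Tnip2, an inhibitor of NF-kappaB activation, rose by 0.91 ± 0.24 at 12 h (adjusted p 0.0303, and 0.0916 with the set as a block) and by 1.33 ± 0.24 at 18 h (adjusted p 0.00219).

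Rela, the main activating NF-kappaB subunit, rose by 0.57 ± 0.13 at 18 h (adjusted p 0.0121, and 0.0555 with the set as a block), its arrays there lying between 8.03 and 8.42 and those of sham between 7.37 and 7.72. Birc2 (cIAP1) rose by 0.51 ± 0.14 at 18 h (adjusted p 0.0350). Casp8, the initiator caspase that Fadd recruits, fell by 0.61 ± 0.17 at 12 h (adjusted p 0.0419) and by 0.66 ± 0.17 at 18 h (adjusted p 0.0232). Sham arrays of Casp8 read 7.60, 7.89, 8.01 and 8.08 and those at 18 h 6.92, 7.05, 7.43 and 7.51, without overlap. The second gene called lower at 18 h was Sharpin, a subunit of the linear ubiquitin ligase, by 0.28 ± 0.08 (adjusted p 0.0408), which is named after its values were seen. The count of 7 at 18 h was 4 without sham replicate 2 or 18 h replicate 2, and that of 2 at 12 h was 0 without sham replicate 3 or 12 h replicates 1 or 4 and 1 without sham replicates 2 or 4, 6 h replicates 1, 2 or 4, or 12 h replicate 3.

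**Figure D5:**
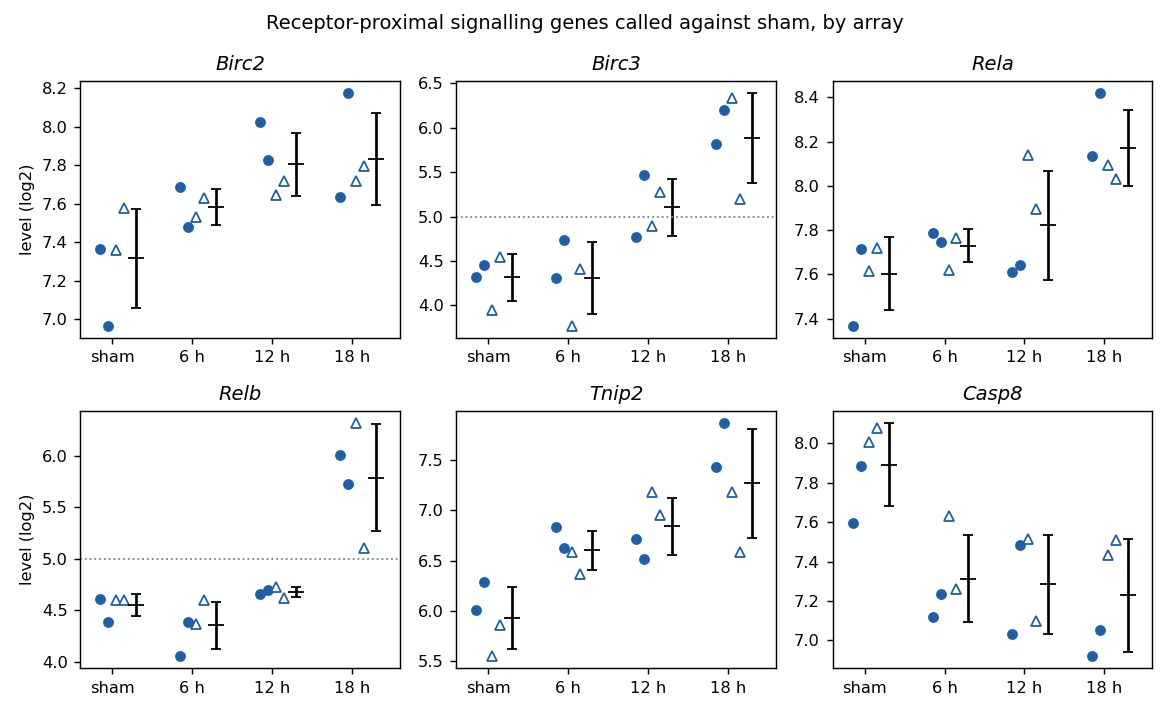
Level (log2) on each array of the 6 receptor-proximal signalling genes with the smallest p among those called against sham, with circles for replicates 1 and 2, triangles for replicates 3 and 4 and mean ± SD of 4 arrays; the dotted line marks 5. Relb is under 5 until 12 h and above it on all 4 arrays at 18 h, and Casp8 is the gene that falls.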

How the data were processed

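RNA from 16 rat initial segments was hybridised to 1 Affymetrix array each. The deposited table holds 1 log2 value per probe set and array, made by the authors with GCRMA per the submitters' processing notes (background correction, quantile normalization and summary of probes; version not given in the sources used here). Of 31099 probe sets, 57 controls were left out, and of the other 31042 the platform annotation of 2016 gave 20826 1 symbol, 436 several and 9780 none. The 43 genes were all found by Entrez ID in the GRCr8 gene table, with 0 symbols changed. Scanner files were not analysed here.

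Probe sets at or above 5 on at least 4 of 16 arrays (13410) were fitted with limma 3.58.1 under R 4.3.3 (4 group means over all 16 arrays, with eBayes), and p-values were adjusted by Benjamini-Hochberg within each comparison over all tested probe sets. A call is an adjusted p under 0.05. Differences are given ± SE, with 95% intervals, and levels as means ± SD of 4 arrays. Scripts were tested on simulated data. GCRMA's quantile step brings the arrays' medians together (7.51 to 7.62 over tested probe sets), and values near the floor are compressed. Precision is limited by the number of arrays.

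The members, pathway lists, marker lists and tests were chosen with earlier results of these data known. Members called against sham, and Tnf, Fas, Faslg, Tnfrsf1a, Tnfrsf1b, Tradd, Fadd, Ripk1 and Traf2, are given by array where tested. Other tested members are given as group means and untested ones by their highest level. From the pathway lists up to 6 called genes were taken. Markers were lists for epithelium, initial segment, macrophages, lymphocytes, neutrophils (0 of 4 tested), fibroblasts (0 of 9 called against sham), endothelium (1 of 3 higher at 18 h), smooth muscle (0 of 8 called against sham) and sperm. With the array set as a block, 1 of 9 fibroblast markers was called higher than sham at 18 h. Promoters are RefSeq's, assembly GRCr8. The alternatives were another prior, other minimum levels, centring or normalizing again, a fit of just 2 groups, a block for the replicate number or for the array set, each pair of replicates alone, probe sets averaged, and each array left out in turn.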

Additional observations from a re-analysis of the deposited data

Results flagged for a closer look

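Some arrays stood apart from the other 3 of their group by Dixon's test at the 95% level, which chance alone meets in about 1 in 20 groups. It was met 11 times in the 84 groups looked at (21 genes in 4 groups). Tnfrsf12a read 9.69 on 12 h replicate 3, where the next highest array was 6.97. Tnfrsf1a read 8.87 on sham replicate 1, below the next at 9.53. Tnfsf13 read 5.75 on sham replicate 1 and 5.09 on 12 h replicate 4, both near the minimum level of 5. Tradd read 5.01 on 6 h replicate 2, with the other 3 arrays from 6.25 upwards.

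For Traf2 the flagged arrays differ little from arrays that share 1 value: it read 5.93 on sham replicate 4 and 5.93 on 18 h replicate 4, beside 5.95 on the others. Traf3ip2 at 7.78 on 12 h replicate 4 stood against 3 arrays at 7.69. Traf3ip1 read 6.09 on 12 h replicate 3, above the next at 5.62. Traf6 read 6.67 on 6 h replicate 4 and 6.40 on 18 h replicate 2, below the next arrays at 7.11 and 7.17.

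The change from sham differed between 6 h and 12 h for Tnfrsf14, by -1.40 (limma adjusted p 0.00881), and for Traf4, by 0.46 (adjusted p 0.0484). All 4 Tnfrsf14 arrays at 12 h were under 5, and with levels under 5 set to 5 its difference was -0.20. Both rest on the comparison of the 12 h with the 6 h arrays, in which the sham arrays cancel.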

How the results depend on the processing

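Of 105 gene results (21 genes in 5 comparisons), the alternatives reversed 0 called differences. Centring the arrays on their medians or normalizing them again left the direction and the call of all 105 as they were. Another prior left 103, no minimum level 100, only the 2 groups compared 101, the array set as a block 102, and each pair of replicates alone 96. The cause of each change below was not tested, but the minimum of 7 and the pairs of replicates leave fewer genes or arrays. The 1 gene called at 6 h became 0 with no minimum, a minimum of 7, or either pair of replicates alone, and 0 to 1 over single omissions. The 4 at 12 h became 2 with no minimum, 1 with a minimum of 7 or in replicates 1 and 2, 2 in replicates 3 and 4, and 2 to 4 over single omissions. The 5 at 18 h became 3 with a minimum of 7 and 1 in replicates 3 and 4 (Tnfrsf14), and 4 to 6 over single omissions. Between 6 h and 12 h the 2 became 1 with the other prior, no minimum, only the 2 groups or the array set as a block, 0 with a minimum of 7 or in replicates 3 and 4, and 1 to 2 over single omissions. Between 12 h and 18 h the 0 became 2 in replicates 1 and 2, and 0 to 1 over single omissions. The 5 between replicates 3 and 4 and replicates 1 and 2 became 2 with no minimum and 3 with a minimum of 7, and 3 to 5 over single omissions. Of the receptor-proximal genes, the 0 at 6 h became 1 with probe sets averaged. Their 2 at 12 h became 0 with no minimum or in replicates 1 and 2, 1 with only the 2 groups or in replicates 3 and 4, and 0 to 3 over single omissions. Their 7 at 18 h became 4 with only the 2 groups, 1 in replicates 3 and 4, 3 in replicates 1 and 2, and 4 to 8 over single omissions. With the array set as a block both totals stayed the same but the genes called changed. At 12 h it was 1 higher and 1 lower, with a gene other than Tnip2 called higher. At 18 h it was 4 higher and 3 lower in place of 5 and 2. The 0 superfamily genes under other symbols at 18 h became 1 with the array set as a block.

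With the replicate number as a block, 9 members were called at 18 h in place of 5 (Tnfrsf12a, Tnfrsf1a, Traf3ip2 and Traf4 in addition), and the counts of members against sham at 6 h and 12 h were 1 and 4 as before. The numbers were not taken to pair the arrays: 23 of 24 correlations between same-numbered arrays were over 0.1, the lowest was 0.0065 and the median 0.414, and 11 of 16 arrays correlated best with an array of their own number.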
